A study of Mus musculus with 6 samples.

Results

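The genes described here are the nuclear genes of oxidative phosphorylation in lung epithelial cells of Miwi2-tdTomato mice. They were chosen by symbol alone: Nduf genes, Sdha to Sdhd, Uqcr genes, Cox genes with a digit, Atp5 genes, Cyc1 and Cycs, with 7 pseudogene rows left out. This gave 103 of 48577 rows: 44 for complex I, 4 for complex II, 10 for complex III with cytochrome c, 29 for complex IV and 16 for complex V. The 103 include assembly factors as well as subunits; Ndufa4 was placed with complex IV and Atp5sl with complex I, where their proteins act.

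Both fractions came from C57BL/6 mice in which tdTomato reports Piwil4, the gene of the Piwi protein MIWI2. Lungs were dissociated and sorted for cells without CD45, a leukocyte marker, and with EpCAM, an epithelial marker, into a tdTomato-negative and a tdTomato-positive fraction. Each of 3 mice gave 1 library of each fraction, 6 in all, so a comparison rests on 3 pairs. With the mouse in the model, its p-values measure how far the differences within a mouse vary over these 3 mice. All 6 libraries carry the reporter allele; the state of the Piwil4 locus on that allele, and the age and sex of the mice, are not given in the sources used here. The labels call both fractions multiciliated, but no gate for cilia is named.

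Oxidative phosphorylation runs in the inner mitochondrial membrane. Complex I (NADH dehydrogenase) and complex II (succinate dehydrogenase) pass electrons to ubiquinone, complex III passes them to cytochrome c, and complex IV passes them to oxygen. Complexes I, III and IV pump protons, and complex V, the ATP synthase, uses the proton gradient to make ATP. Most subunits are encoded in the nucleus and a few in the mitochondrial genome, so the complexes need both. In multiciliated cells mitochondria gather below the cilia, whose dynein motors use ATP. Factors known to act on promoters of these nuclear genes include NRF1, GABPA, SP1 and YY1.

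Promoters of 3 members are shown, each as the 250 bases before the transcription start in RefSeq on GRCm38.p6, 5′ to 3′ on the gene's strand, with motif matches in capitals. Ndufaf3 is shown because it is the member called different between the fractions, and its match is to SP1 (GGGCGG), with its first letter 210 bases before the start. Cox6a1 and Uqcrh are shown because they had the highest mean level, not scaled by length, among tested members with a match to NRF1 and GABPA, respectively. Only windows lying largely outside the annotated gene were considered. The NRF1 match in Cox6a1 (GCGCATGCG) was found on both strands in 2 overlapping copies. The GABPA match in Uqcrh (CCGGAAGT) is on the opposite strand, 11 bases before the start. Cox6a1 also holds 2 SP1 matches, both on the opposite strand. The windows are chr9:108567437-108567686 for Ndufaf3, chr5:115348959-115349208 for Cox6a1 and chr4:116075071-116075320 for Uqcrh, all on the minus strand.
Ndufaf3: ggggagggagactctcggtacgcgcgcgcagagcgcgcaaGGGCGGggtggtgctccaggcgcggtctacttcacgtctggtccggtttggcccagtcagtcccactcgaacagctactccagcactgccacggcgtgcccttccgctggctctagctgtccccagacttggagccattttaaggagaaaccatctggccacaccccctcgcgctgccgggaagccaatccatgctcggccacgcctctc
Cox6a1: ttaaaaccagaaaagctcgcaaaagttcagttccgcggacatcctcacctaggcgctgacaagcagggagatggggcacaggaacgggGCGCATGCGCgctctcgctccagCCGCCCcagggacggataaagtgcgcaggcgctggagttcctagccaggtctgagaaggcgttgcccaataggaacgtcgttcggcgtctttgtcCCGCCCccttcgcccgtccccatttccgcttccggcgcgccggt
Uqcrh: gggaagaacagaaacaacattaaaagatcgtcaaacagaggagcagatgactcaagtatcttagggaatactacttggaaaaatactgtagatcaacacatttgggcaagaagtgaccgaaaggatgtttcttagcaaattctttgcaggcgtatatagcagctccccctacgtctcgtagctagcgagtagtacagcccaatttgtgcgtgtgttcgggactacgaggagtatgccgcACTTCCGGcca

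RefSeq held a promoter window for 81 of the 103 members. Unlike the sequences shown above, the windows searched for the shares below also held bases after the transcription start. The shares of all 4 motifs are thus not limited to upstream bases. NRF1 letters were in 13.6% of the members' windows and in 1.95% of the windows of 27025 genes. GABPA letters were in 11.1% against 4.31%, YY1 letters (AAGATGGC) in 13.6% against 3.19%, and SP1 letters in 46.9% against 38.2%, on either strand. Expressed genes hold such letters more often. Among tested genes the shares were 13.2% of members against 4.04% of genes for NRF1, 13.2% against 9.1% for GABPA, 14.7% against 5.32% for YY1 and 45.6% against 68% for SP1. A match is a description of the letters in the window and not a binding site.

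The libraries held 5330584 to 6326395 reads in genes. Levels are given as CPM, counts scaled by the library size after TMM factors, and 3 reads correspond to 0.475 to 0.585 CPM. That floor reflects counting error only: the RNA was amplified and carried no molecular identifiers, so reads may be copies of 1 molecule. Piwil4 was at 44, 29.97 and 45.6 CPM in negative libraries (mice 1, 2 and 3, the order kept throughout) and at 101, 95.7 and 111 CPM in positive ones (edgeR adjusted p = 0.000223, 0.012 without a term for the mouse). tdTomato had 0 reads in negative libraries and 6.25, 2.53 and 2.86 CPM in positive ones, so all 3 pairs matched their labels. The 2 fractions also differed in markers of other lung cells, and both held multiciliated markers. Summed over 15 genes, multiciliated markers were at 8143 to 8549 CPM in negative libraries and 8171 to 9158 CPM in positive libraries. By mean CPM the largest terms were Dnah5, Dnah9, Dnah12 and Hydin, with log2 fold changes of -0.1, 0.08, -0.37 and 0.06. Foxj1, Tppp3 and Cfap126 were at 1.2, 1.02 and 0.7 (edgeR adjusted p = 0.000129, 0.000729 and 0.0301, and 0.665, 0.554 and 0.289 without a term for the mouse). Of the 14 markers tested, 10 were above 0 and 4 below, so the sum hides differences between markers. The 12 alveolar type 2 markers summed to 6744 to 8118 CPM against 594 to 1162 CPM, and the 10 club cell markers to 4900.5 to 8353 CPM against 8628 to 22159 CPM. In such bulk samples, fewer cells of a type and less RNA per cell cannot be told apart.

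With the mouse as a block in edgeR's quasi-likelihood test and Benjamini-Hochberg adjustment over 13175 genes, 415 genes (3.15%) had an adjusted p under 0.05, here termed called. Of these, 179 (1.36% of the genes tested) were higher and 236 (1.79%) lower in the tdTomato-positive libraries. The filter kept 86 of the 103 members: 39 of complex I, 4 of complex II, 9 of complex III, 19 of complex IV and 15 of complex V. Ndufaf3, a complex I assembly factor, was the 1 member called, and it was higher in positive libraries. An unadjusted p under 0.05 was found for 9 members, all higher in positive libraries, against 8.2% of all genes tested in that direction. In either direction it was found for 2100 of the 13175 genes. Without the block edgeR called 82 genes (0.622%) and 0 members, with 6 members at an unadjusted p under 0.05. With the block DESeq2 (3.52% of all genes called) and limma-voom (4.1%) each called 2 of the 86 members, Ndufaf3 and Atp5b. Over both directions the share of members called was below that of all genes by each of these fits. All members called were higher in positive libraries. In that direction DESeq2 called 201 and limma-voom 263 of the 13175 genes. With at most 2 members called by a fit, no difference from all genes was read from these shares.

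The other members were mostly slightly above 0 and not separated from the spread of the within-mouse differences. Of the 86, 62 (72.1%) had a log2 fold change above 0 and 24 below, against 50.05% above 0 for all genes tested. The split was 53 above and 32 below without mouse 1, 74 and 14 without mouse 2, 47 and 38 without mouse 3, and 80 and 6 with library size alone. The median log2 fold change was 0.23, with a range of -0.93 to 1.03 and a median of 0 over all genes. Without mouse 1, 2 or 3 it was 0.11, 0.47 or 0.06. The members' median lay 0.23 above that of all genes with TMM, with upper quartile factors and with library size alone, although the last moved all genes by 0.26. Such factors move members and other genes alike, so this offset could hardly differ between scalings and is no check of it. The 3 mice did not go the same way. The median within-mouse log2 ratio of the members was 0.40 in mouse 1, -0.23 in mouse 2 and 0.58 in mouse 3, while the median of all genes was -0.01, 0.02 and 0.02. With library size alone, a scaling added for these medians after the data were seen, the members were at 0.49, 0.22 and 0.80 and all genes at 0.07, 0.46 and 0.25. Relative to all genes, mouse 2 was below 0 with both scalings, at -0.25 and -0.24. A scaling moves all genes of a library alike, so this difference could hardly change between them and the second value is no separate evidence. In mouse 2 the negative library stood apart in its share of mitochondrial ribosomal RNA, 39.1% of gene reads against 17.4% to 28.6% in the other 5; its part in the opposite sign was not tested.

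**Figure D1:**
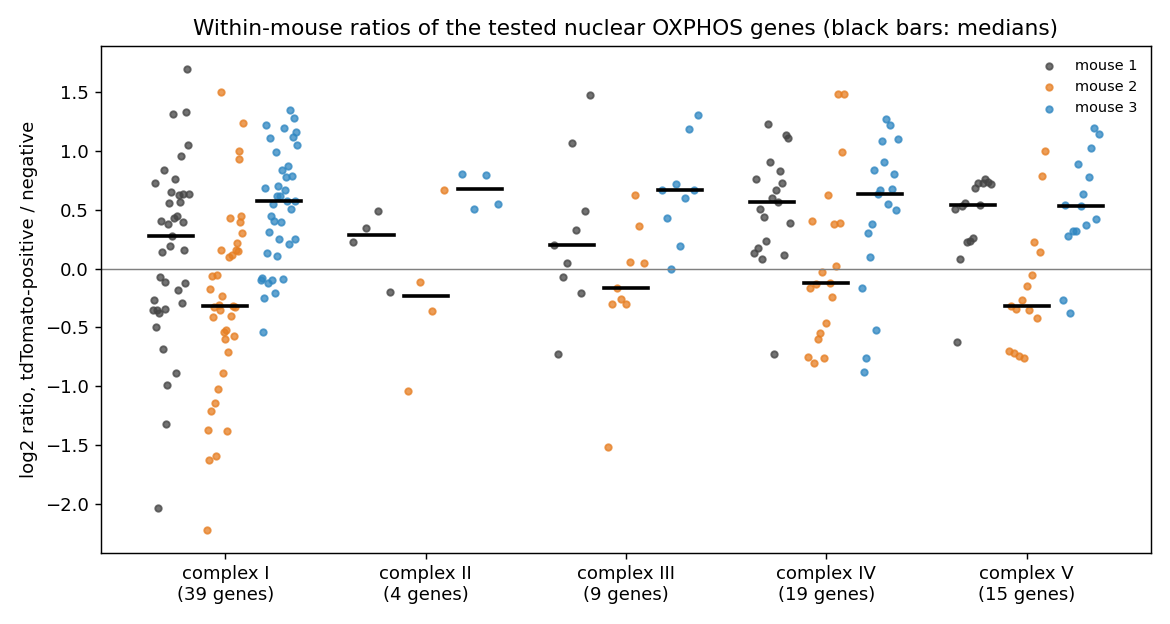
Within-mouse log2 ratios (tdTomato-positive over tdTomato-negative, y axis) of the 86 tested members by complex (x axis), 1 point per gene and mouse, with black bars at the median. In each complex the bars of mice 1 and 3 lie above 0 and that of mouse 2 below, with complex I at 0.28, -0.32 and 0.58.

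Higher values in all 3 mice were found for 20 members (23.3%), against 19.8% of all genes. Every positive library lay above every negative one for 7 members (8.14%), Atp5b, Cox15, Cox17, Cox6b1, Cox8a, Ndufaf3 and Ndufc1, against 8.29% of all genes. These shares are close to those of all genes. Lower values in all 3 mice were found for 4 members (4.65%), Ndufb2, Ndufb3, Ndufb7 and Ndufs4, against 18.8% of all genes. Every positive library lay below every negative one for Ndufb3 and Ndufb7 (2.33%), against 9.02% of all genes. Members lower in the positive cells of every mouse were thus a smaller share than among all genes, a description for which no test was made.

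**Figure D2:**
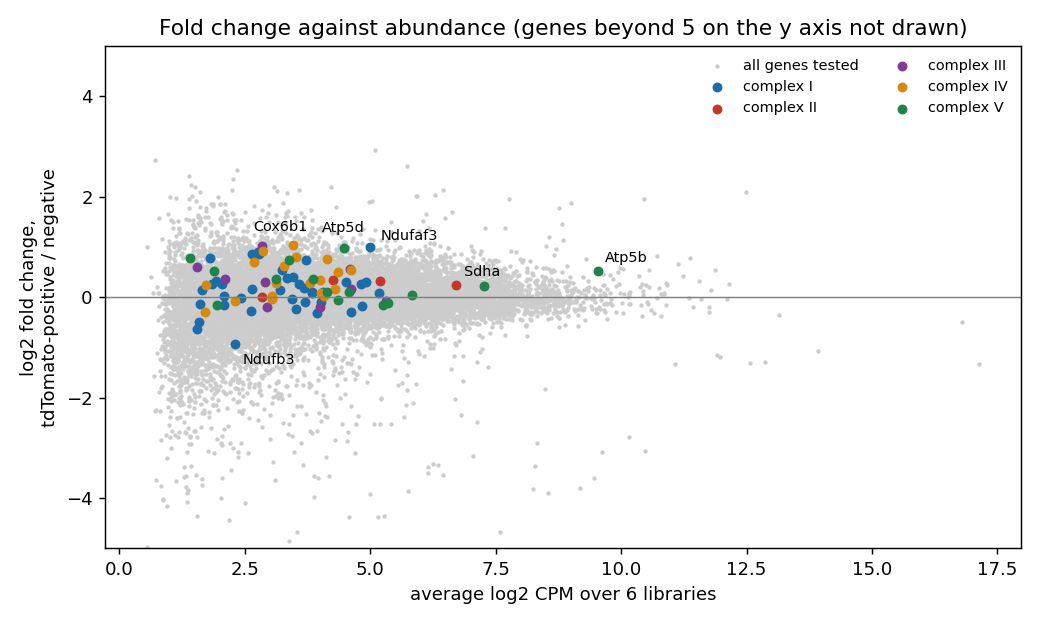
Fitted log2 fold change (y axis, tdTomato-positive over tdTomato-negative) against average log2 CPM (x axis) for all genes tested (grey) and the members coloured by complex; 13 genes beyond 5 on the y axis are not drawn. Members lie between -0.93 and 1.03, inside the cloud of other genes, with Atp5b far to the right of the rest.

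Complex I takes electrons from NADH. Its 7 nuclear-encoded core subunits carry the flavin, the iron-sulfur clusters and the quinone site, and the other subunits surround that core. Ndufaf3 encodes a factor needed to assemble the quinone-binding module and is not part of the finished enzyme. It lies on chromosome 9 at 108565537 to 108567434 (minus strand, GRCm38), and 48 of its exonic bases (2.64%) overlap Impdh2 on the opposite strand; reads there cannot be assigned to a strand, since the strand setting of the counting is not given in the sources used here. Ndufaf3 was at 28.7, 17.3 and 18.1 CPM in negative libraries and at 44.9, 41.5 and 38 CPM in positive ones. The positive libraries were all above the negative ones, and it was higher in all 3 mice. The means were 21.4 ± 6.37 and 41.4 ± 3.49 CPM (SD, n = 3 each), a 1.98-fold difference, with a log2 fold change of 0.99 ± 0.234 (SE) and an adjusted p of 0.0269 by edgeR. The call was lost without the block (edgeR adjusted p = 0.188), after adjustment for GC content and length (0.115), and without mouse 2 (0.0984) or mouse 3 (0.402); the log2 fold change stayed between 0.72 and 1.24 over 19 alternatives.

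The other 7 tested assembly factors of complex I had no unadjusted p under 0.05. Of all 8, 3 were above 0 and the median was -0.03. Ndufaf1, whose protein acts in the membrane arm, was at 3.69, 6.15 and 5.07 CPM in negative libraries and 3.38, 4.75 and 6.83 CPM in positive libraries. Ndufaf4, which acts with Ndufaf3 protein, was at 9.89, 13.6 and 8.58 CPM against 7.77, 10.9 and 12.7 CPM. For both genes mouse 3 was higher and the other mice lower in the positive library. The log2 fold change of Ndufaf1 was -0.02 ± 0.474 and that of Ndufaf4 -0.04 ± 0.357 (SE), with larger errors than the 0.234 of Ndufaf3. Both genes were named after their values were seen.

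Among the 7 core subunits of complex I, 5 were above 0, none was called and the median was 0.11. Ndufs7, a carrier of the terminal iron-sulfur cluster, had the largest value. It was at 14.9, 9.22 and 5.65 CPM in negative libraries and 16.7, 17.9 and 12.7 CPM in positive libraries, higher in each mouse but with overlapping groups (log2 fold change 0.74 ± 0.339 SE, adjusted p = 0.291 by edgeR). Of the 24 accessory subunits tested, 17 were above 0, 7 below and none was called, with a median of 0.18.

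Ndufc2, an accessory membrane-arm subunit, had the highest level per length in complex I, at a mean of 29.8 CPM per kb of exon. Here and below, length covers all annotated exons of a gene, merged. Its CPM was 23.7, 18.4 and 15.8 in negative libraries and 35.3, 12.3 and 29.2 in positive libraries, so mouse 2 went against the other 2. Ndufc1, another small subunit of the membrane arm, was at 4.66, 3.84 and 4.09 CPM against 15.9, 5.38 and 4.92 CPM. The groups of Ndufc1 did not overlap, but 15.9 CPM in mouse 1 stood far above the other positive values (edgeR adjusted p = 0.381). Ndufb2 was at 18.8, 13.3 and 18.5 CPM against 13.2, 11.7 and 15.6 CPM, lower in each mouse with a log2 fold change of -0.32 ± 0.301 (SE). Ndufb3 had the lowest log2 fold change of all members, -0.93 ± 0.566 (SE, edgeR adjusted p = 0.452). It was at 5.04, 9.41 and 4.09 CPM against 3.88, 1.74 and 3.81 CPM, and the mouse 2 pair made most of that difference. Ndufb2 and Ndufb3 encode small subunits of the membrane arm.

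Complex II is the one complex with no mitochondrially encoded subunit, and it also serves the tricarboxylic acid cycle. All 4 of its genes were above 0, with a median of 0.29. None was called by edgeR, DESeq2 or limma-voom, and none had an unadjusted p under 0.05. Sdha, the flavin-carrying catalytic subunit, was at 78, 112 and 98.1 CPM in negative libraries and 99.3, 104 and 139.7 CPM in positive libraries. Sdhd, a membrane anchor, was at 29.7, 31.7 and 32.6 CPM against 41.9, 24.7 and 56.9 CPM. For both genes the pair of mouse 2 was lower in the positive library and the other pairs higher. Sdhc, the other anchor, was at 16.1, 17.7 and 14.4 CPM against 14, 28.3 and 21.3 CPM, with mouse 1 the lower pair. The log2 fold changes were 0.25 ± 0.171 for Sdha, 0.32 ± 0.244 for Sdhd and 0.35 ± 0.295 for Sdhc (SE), with edgeR adjusted p of 0.517, 0.563 and 0.603. Per kb of exon, Sdha was 6.42, 7.72 and 9.75 times the level of Sdhb, the iron-sulfur subunit, in negative libraries and 6.94, 15.5 and 7.7 times in positive ones.

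Complex III and cytochrome c connect the ubiquinone pool to complex IV. Of 9 tested genes 6 were above 0, with a median of 0.31. None was called by edgeR, DESeq2 or limma-voom, and 1 had an unadjusted p under 0.05 by edgeR. Uqcrh, the hinge subunit, was the most abundant per length at a mean of 19.4 CPM per kb. It was at 21.7, 24.6 and 20.7 CPM in negative libraries and 22.5, 20.4 and 34.3 CPM in positive libraries. Uqcrc2, a core subunit, was at 36.1, 44.4 and 40.4 CPM against 34.3, 39.6 and 40.5 CPM. Its log2 fold change was -0.08 ± 0.205 (SE), among the smallest errors of the members, and it turned to 0.18 with library size alone, by the shift of all genes. Cyc1, the cytochrome c1 that hands electrons to cytochrome c, was at 16.5, 23.4 and 15.8 CPM against 14.2, 36.4 and 36.5 CPM. Mice 2 and 3 were higher in the positive library and mouse 1 was lower (log2 fold change 0.56 ± 0.292 SE, edgeR adjusted p = 0.371).

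Uqcrfs1, the Rieske iron-sulfur protein, was at 12.6, 23.8 and 13.1 CPM against 14.5, 8.07 and 21 CPM. The positive library was lower in mouse 2, with a log2 ratio of -1.52, and higher in mice 1 and 3, at 0.20 and 0.67. Uqcr10, a small accessory subunit, was at 5.24, 4.42 and 3.12 CPM against 15.2, 4.59 and 8.26 CPM. It was one of the 9 members with an unadjusted p under 0.05 and did not pass adjustment (log2 fold change 1.02 ± 0.451 SE, edgeR adjusted p = 0.277). Cycs, the mobile carrier itself, was at 5.82, 9.99 and 7.21 CPM against 3.38, 8.07 and 9.85 CPM. Uqcrc1, the other core subunit, is found in all respiring cells and was listed at 0 reads in all 6 libraries, so its row was not read as absence of the transcript. Uqcr10 and Cycs were named after their values were seen.

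Complex IV, cytochrome c oxidase, had 16 of 19 tested genes above 0 and a median of 0.29. None was called by edgeR, DESeq2 or limma-voom, and 4 had an unadjusted p under 0.05 by edgeR. Its 11 tested structural subunits, of which 10 were above 0, had a median of 0.28, and the 7 tested assembly factors had a median of 0.34. Those assembly factors had medians of 0.18, 0.41 and 0.50 in mice 1, 2 and 3, where the subunits were at 0.57, -0.16 and 0.64. Cox6b1, which links the monomers of the dimer, had the highest log2 fold change of all members, 1.03 ± 0.367 (SE, edgeR adjusted p = 0.159). It was at 8.92, 5.95 and 6.04 CPM in negative libraries and 11.8, 17.4 and 13.3 CPM in positive libraries, and the groups did not overlap. It was called in 1 of 19 alternatives, without mouse 1 (log2 fold change 1.32, edgeR adjusted p = 0.038); without mouse 2 the edgeR adjusted p was 0.466 and without mouse 3 0.635. Cox8a was at 7.57, 9.8 and 6.82 CPM against 17.1, 13 and 12.2 CPM, again without overlap (0.80 ± 0.347 SE, edgeR adjusted p = 0.265).

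Cox6a1 was the most abundant gene of complex IV per length, at a mean of 28.4 CPM per kb. It was at 26.2, 13.6 and 8.77 CPM in negative libraries and 41.9, 12.5 and 16.8 CPM in positive libraries, and both libraries of mouse 1 were above the other 4. Cox18, which inserts a mitochondrially made subunit into the membrane, was at 9.51, 6.72 and 7.21 CPM against 10.8, 9.02 and 4.13 CPM. The positive library of mouse 3 was lowest, and the log2 fold change was -0.04 ± 0.404 (SE) with a sign that changed between settings, 0.21 with library size alone among them. Cox17, a copper chaperone, was at 4.66, 4.99 and 4.48 CPM against 10.5, 10.3 and 6.51 CPM, and Cox15, of heme a synthesis, at 19.6, 7.88 and 12.3 CPM against 21.3, 22.8 and 19.8 CPM. Neither passed adjustment (edgeR adjusted p = 0.285 and 0.257); both were named after their values were seen. Cox17 and Cox15 are assembly factors and had no overlap between the fractions.

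Several subunits exist as paralogues with different tissue use, and the files list reads mainly for the broadly used form. Cox4i1 was at 25.8, 20.9 and 12.1 CPM in negative libraries and 38.5, 17.7 and 29.7 CPM in positive libraries (log2 fold change 0.54 ± 0.296 SE, edgeR adjusted p = 0.396). Cox4i2, a form known from lung and from low oxygen, had 1, 1 and 1 reads against 0, 5 and 1, so 5 of its 6 libraries were under the floor of 3 reads. Cox6a2 and Cox8b, forms of heart and skeletal muscle, had at most 1 and 4 reads in a library, and Cox7a1, another muscle form, at most 3. Cox6b2, a testis form, had 7, 3 and 1 reads against 0, 8 and 3. Cox8c and Ndufa4l2 had 0 reads in all 6 libraries. Uqcrc1, found in all respiring cells, was listed at 0 as well, so these rows were not read as absence either. Their partners had reads in every library. Cox7a2 was at 8.34, 7.68 and 6.63 CPM against 12, 4.27 and 8.26 CPM, and Ndufa4 at 13.2, 18.6 and 14.4 CPM against 18.1, 12.2 and 18.9 CPM. Neither was separated between the fractions: the log2 fold changes were 0.02 ± 0.420 and 0.08 ± 0.319 (SE).

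Complex V had 11 of 15 tested genes above 0 and a median of 0.22. edgeR called none, with 2 at an unadjusted p under 0.05, and DESeq2 and limma-voom called 1, Atp5b. Its catalytic F1 head makes ATP, driven by rotation of the c ring in the membrane. Atp5b, the catalytic beta subunit of F1 on chromosome 10 (128083273 to 128090391, plus strand, GRCm38), was the most abundant member on CPM and per length. It was at 691, 614 and 522 CPM in negative libraries and 1002, 719 and 896 CPM in positive libraries. Every positive library was above every negative one, in means 609 ± 84.5 against 873 ± 143 CPM (SD, n = 3 each). The log2 fold change was 0.51 ± 0.139 (SE) with an edgeR adjusted p of 0.0538, just outside the threshold; 5 of 19 alternatives called it, DESeq2 (0.0386), limma-voom (0.0164) and edgeR without mouse 2 (0.00325) among them. Without mouse 1 the edgeR adjusted p was 0.163, without mouse 3 0.637, with GC and length offsets 0.109, with upper quartile factors 0.101 and without the block 0.32. Atp5b alone held 34.6%, 30.2% and 31.6% of the summed CPM of all members in negative libraries and 37.5%, 36.6% and 35.8% in positive ones.

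Atp5a1, the alpha subunit, alternates with the beta subunit in the F1 head in equal number. It was at 152, 148 and 126 CPM in negative libraries and 182, 133 and 183 CPM in positive libraries (log2 fold change 0.22 ± 0.163 SE, edgeR adjusted p = 0.563). Per kb of exon, Atp5b was 3.36, 3.08 and 3.07 times Atp5a1 in negative libraries and 4.07, 4 and 3.63 times in positive ones. The ratio was thus higher in the positive library of each mouse, with no overlap; it was computed after both values were seen and has no test. Atp5d, the delta subunit in the F1 stalk, was at 32.4, 6.53 and 7.41 CPM against 53.7, 13.4 and 16.8 CPM. It was higher in each mouse, but mouse 1 was above the others in both fractions, so the groups overlapped (log2 fold change 0.97 ± 0.274 SE, edgeR adjusted p = 0.0692, 0.741 without the block). Atp5d shares 68 exonic bases (3.53%) with Cbarp on the opposite strand.

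The c ring is built of identical subunits encoded by 3 genes. Atp5g3 was the most abundant of them per length and was at 39, 51.1 and 36.3 CPM in negative libraries and 41.2, 30.9 and 44.1 CPM in positive libraries. Atp5g1 was at 9.31, 6.72 and 6.24 CPM against 16, 7.44 and 14.8 CPM, higher in each mouse (log2 fold change 0.73 ± 0.369 SE, edgeR adjusted p = 0.349). Atp5g2 was at 3.3, 0.768 and 0.975 CPM against 5.74, 1.58 and 1.43 CPM. Reads that fit several places in the genome have their own summary row in the files, so reads shared by such paralogues or by their pseudogenes may be missing from these values. Atp5f1, a subunit of the stator stalk, was at 29.1, 50.3 and 40.8 CPM against 41.7, 30.9 and 33.7 CPM. Its log2 fold change of -0.16 ± 0.243 and that of Atp5g3, -0.12 ± 0.230 (SE), turned to 0.10 and 0.14 with library size alone, by the shift of all genes.

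**Figure D3:**
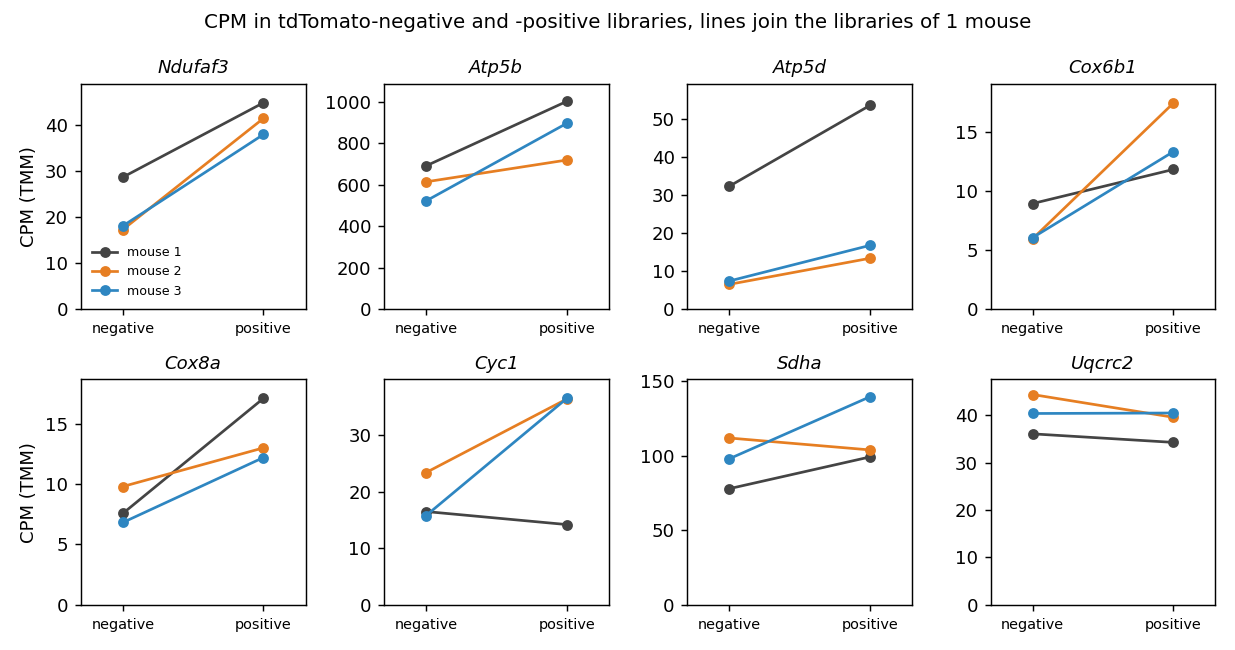
CPM (y axis, TMM factors) of 8 members in the tdTomato-negative and tdTomato-positive libraries (x axis), with lines joining the 2 libraries of each mouse. Ndufaf3, Atp5b, Atp5d, Cox6b1 and Cox8a are higher in the positive library of all 3 mice, Cyc1 and Sdha in 2 of 3, and Uqcrc2 stays between 34.3 and 44.4 CPM.

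The 17 members that the filter left out were low or empty. Uqcrc1, Cox7b2, Cox8c and Ndufa4l2 had 0 reads in all 6 libraries, and the others reached at most 2.2 CPM. Besides the paralogues above, they included Ndufa1, Ndufa5, Ndufb4, Ndufb6 and Ndufs5 of complex I, Atp5l of complex V, and the complex IV assembly factors Cox11 and Cox20. Most of these encode small subunits used in all tissues. Members were short by annotation: the median length of all exons of a gene, merged, was 1831 bp over the tested members against 4334 bp over all genes tested. No statement on a difference between the fractions is made for these 17.

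Summed over all 103 members, the nuclear genes took a small part of the libraries, 0.156% to 0.193% of gene reads in negative libraries and 0.222% to 0.278% in positive ones. On the CPM scale the sum was 1998, 2035 and 1652 in negative libraries and 2671, 1967 and 2501 in positive libraries. It was 1.34-fold higher in the positive library of mouse 1 and 1.51-fold higher in that of mouse 3, and 0.967 times as high in mouse 2. The direction in mouse 2 turned with the scaling: as a share of gene reads, without TMM factors, the members were at 0.167% in its negative and 0.222% in its positive library. With TMM and without Atp5b the ratios were 1.28, 0.878 and 1.42. By complex, the means were 431 ± 55.4 against 492 ± 69.6 CPM for complex I, 150 ± 19.4 against 184 ± 38.2 CPM for complex II and 122 ± 18.1 against 139 ± 20.9 CPM for complex III (SD, n = 3 each). They were 192 ± 34.5 against 255 ± 49.6 CPM for complex IV and 1001 ± 119 against 1309 ± 239 CPM for complex V.

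The mitochondrially encoded subunits of the same complexes were lower in the positive library of every mouse, also in mice 1 and 3, where the nuclear sum was higher. Their summed CPM was 72871, 54999 and 34844 in negative libraries and 40607, 18739.7 and 15202 in positive libraries. All 7 genes tested of 13 were called lower with the block, against 1.79% of all genes in that direction, with a median log2 fold change of -1.29. DESeq2 and limma-voom with the block also called all 7; without the block edgeR called 0, with 2 at an unadjusted p under 0.05. mt-Nd6, a complex I subunit, fell from 1017, 396 and 246 CPM to 322, 78.2 and 88.3 CPM (log2 fold change -1.82 ± 0.166 SE, edgeR adjusted p = 4.87e-06, 0.545 without the block). mt-Nd5 and mt-Nd2 had log2 fold changes of -1.32 ± 0.138 and -1.34 ± 0.148 (SE) and were not called without mouse 3 (edgeR adjusted p = 0.0569 for each). mt-Nd6, mt-Nd5 and mt-Nd2 were lower in the positive library of each mouse and highest in mouse 1 in both fractions. The other 6 mitochondrial messenger RNAs, mt-Co2 and mt-Co3 among them, were listed at 0, which was not read as absence.

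The ratio of mitochondrial to nuclear messenger RNA of the complexes was 36.5, 27 and 21.1 in negative libraries and 15.2, 9.53 and 6.08 in positive ones. It was 2.4-fold, 2.84-fold and 3.47-fold lower in the positive library of mice 1, 2 and 3. No positive library reached a negative one. Mitochondrial ribosomal RNA was 24.6%, 39.1% and 28.6% of gene reads in negative libraries and 19.6%, 17.4% and 18.7% in positive libraries. Alveolar type 2 markers moved the same way, with all 12 below 0 and 9 of 12 called lower (median log2 fold change -2.98; 7 without the block). The part of cell mixture and of RNA quality in the mitochondrial difference was not tested.

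**Figure D4:**
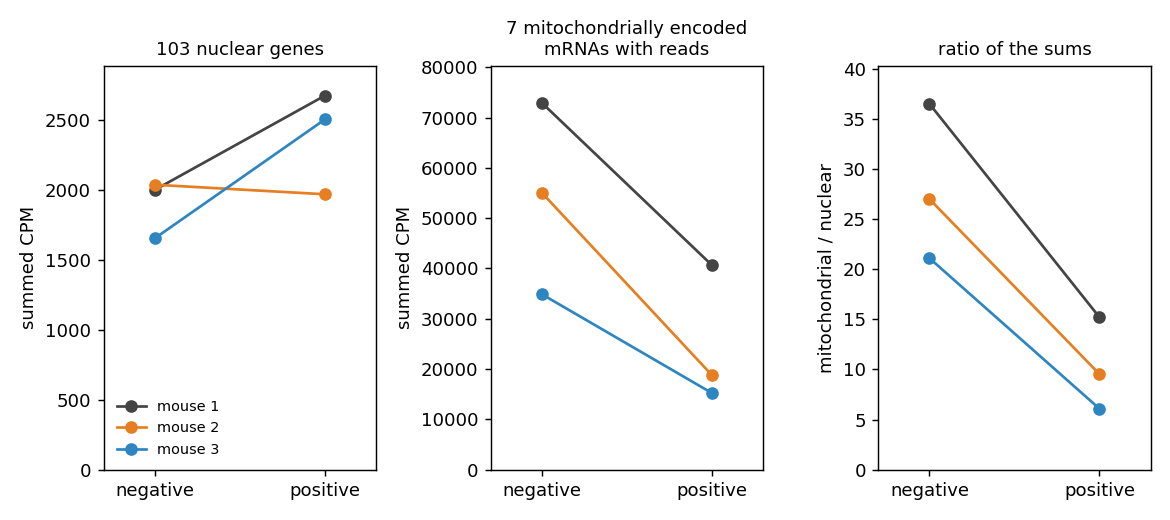
Summed CPM of the 103 nuclear members (left) and of the 7 mitochondrially encoded mRNAs with reads (middle), and their ratio (right), in each fraction (x axis), with lines joining the 2 libraries of a mouse. The nuclear sum is higher in the positive library of mice 1 and 3 and not of mouse 2, while the ratio is lower in all 3, at 6.08 to 15.2 against 21.1 to 36.5.

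Mouse 1 stood apart in part of the members irrespective of the fraction. Both of its libraries lay above the other 4 for 16 members (18.6%), against 9.18% of all genes tested. They included Atp5d, Cox6a1, Cox5a, Ndufa11, Uqcr11 and Uqcrq. For mouse 2 and for mouse 3 this held for 1 member each (1.16%), against 6.94% and 6.55% of all genes. The 16 genes had a median transcript GC content of 53.1% against 49.2% in the other members, and a median exon length of 1675 against 2124 bp; the part of these in the pattern was not tested.

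Lists of other mitochondrial genes had no calls by edgeR, DESeq2 or limma-voom with the block. Of all 13175 genes tested, 2100 had an unadjusted edgeR p under 0.05, 1081 higher and 1019 lower in positive libraries. Of 29 tested further assembly factors and regulators of the respiratory chain, 15 were above 0, the median was 0.03 and 0 had an unadjusted edgeR p under 0.05. The 18 genes of the tricarboxylic acid cycle and pyruvate dehydrogenase had 13 above 0 and a median of 0.20. An unadjusted p under 0.05 was found for 4 of them, 3 higher and 1 lower. Fatty acid beta-oxidation had 7 of 13 above 0, a median of 0.04 and 4 such genes, all higher. Carriers and outer membrane channels had 7 of 8 above 0, a median of 0.21 and 3 such genes, 2 higher and 1 lower. Regulators of mitochondrial biogenesis had 7 of 15 above 0, a median of -0.01 and 1 such gene, which was lower. Ppargc1a, the coactivator of mitochondrial biogenesis, was named after its values were seen: it was at 810, 229 and 1164 CPM against 649, 314 and 1056 CPM.

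Glycolysis, which makes ATP in the cytosol, had 2 of 15 tested genes called, both higher in positive libraries. Of all genes tested, 1.36% were called in that direction. In the list 13 were above 0, with a median of 0.39. In either direction limma-voom called 3 genes of the list and 4.1% of all genes. The largest change in the list had the opposite sign: Hk2, a hexokinase named after its values were seen, was at 8.73, 4.61 and 8.58 CPM in negative libraries and 1.86, 2.06 and 1.27 CPM in positive libraries, without overlap (log2 fold change -2.03 ± 0.552 SE, edgeR adjusted p = 0.0559). Gapdh was at 173, 109 and 111 CPM in negative libraries and 254, 215 and 167 CPM in positive libraries. Ldha, which interconverts pyruvate and lactate, was at 191, 151 and 158 CPM against 261, 242 and 226 CPM. Both were higher in each mouse. The log2 fold changes were 0.71 ± 0.153 and 0.55 ± 0.142 (SE), with edgeR adjusted p of 0.0143 and 0.0415; without the block neither was called (0.291 and 0.234), and without mouse 3 neither was called (0.295 and 0.443). Ldha also lost its call without mouse 1 (0.0732) and without mouse 2 (0.0838). Unlike those of the nuclear members, the within-mouse medians of the glycolysis genes were above 0 in all 3 mice, at 0.13, 0.40 and 0.54; the difference between the lists was not tested.

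Markers of other cell types were read beside these values. Of 14 tested multiciliated markers 3 were called higher and none lower (median 0.13), and of 10 club cell markers 5 were called higher (median 0.80), in both cases with 0 called by edgeR without the block, where 5 and 3 had an unadjusted p under 0.05. Of 7 tested alveolar type 1 markers 1 was called lower, with 2 above 0 and 5 below (median -1.33). Their sum was not lower, at 344, 296 and 279 CPM in negative libraries and 366, 305 and 305 CPM in positive ones. Its largest terms by mean CPM, Emp2, Clic5 and Hopx, had log2 fold changes of 0.31, 0.21 and -0.07. Leukocyte markers summed to 77 to 200.3 CPM in negative libraries and 45.9 to 66.9 CPM in positive libraries, with 2 of 4 tested genes called lower. Without the block edgeR called 0 alveolar type 1 and 0 leukocyte markers, with 3 and 2 at an unadjusted p under 0.05. Of basal markers 1 of 2 was called lower, and of 2 endothelial and 5 mesenchymal markers 0 were called. An unadjusted edgeR p under 0.05 was found for 1 endothelial marker, higher in positive libraries, and 3 mesenchymal markers, lower. The medians of these 2 lists were 0.88 and -1.46. Of all genes tested, 1.36% were called higher and 1.79% lower. Whether the members' levels follow this mixture was not tested.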

How the data were processed

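The authors deposited raw read counts per gene symbol, 1 file per library, each with 48577 gene rows and 5 HTSeq summary rows. Per the labels' protocols, total RNA was amplified (Ovation V2 kit) before TruSeq Nano library preparation. Per the submitters' processing notes, the builds were GRCm38.p4 and mm10 and the tools HTSeq, STAR 2.4.2a, cutadapt 1.7.1, FastQC and DESeq2. The strand setting is not given in the sources used here. Summary rows entered neither library sizes nor tests; they held reads in no gene, 41% to 49.4%, ambiguous reads, 1.31% to 1.99%, and reads aligned to several places, 8.26% to 12% of all rows.

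From these counts, edgeR 4.0.16 in R 4.3.3 fitted the robust quasi-likelihood model with TMM factors, on 13175 genes kept by filterByExpr (count minimum 10), with the mouse as a replicate block, two-sided, called at a Benjamini-Hochberg adjusted p under 0.05. The labels name the same individual for both libraries of a pair, and deviations from group means of the 2 libraries of a mouse correlated at 0.263, 0.254 and 0.346 across genes. Within-mouse log2 ratios used a prior count of 2. Alternatives were no block, other scalings, no or a stricter filter (50), DESeq2 1.42.0, limma-voom (limma 3.58.1), no mitochondrial genes, GC and length offsets (mgcv 1.9.3; 13020 genes) and leaving out each mouse or library. Tested on 1 simulated data set over 12684 genes, the blocked model found 40.6% of 2-fold and 89.9% of 4-fold changes. Of its calls, 10.5% were genes simulated without a change. The unblocked model gave 6.25%, 77.5% and 0%. The simulation put a chosen mouse effect into every gene and took the spread of counts from the blocked fit. It thus favoured the blocked model by design and does not compare the 2 models on these data.

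The members, gene lists and tests were chosen with earlier results of these data known. Genes named by rule were the called members, the 2 most abundant per length and the 2 with the largest rise and fall in each complex (average log2 CPM of at least 3), paralogue pairs, up to 3 called genes of each pathway list, Piwil4 and tdTomato; 1 gene so named is not reported here. GENCODE M21 (GRCm38) gave positions, lengths and GC content for 102 of the 103 members, and RefSeq (GRCm38.p6) the promoters. Lengths merge all annotated exons of a gene, so they can exceed the length of a single transcript.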

Additional observations from a re-analysis of the deposited data

How the results depend on the processing

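With 3 pairs of libraries of about the same depth, 2-fold differences were often missed even in simulated data. The labels pair the libraries by mouse, so the block is part of the reported model; without the replicate block 82 genes in place of 415 and 0 members in place of 1 were called. With library size alone 823 genes (641 higher and 182 lower, against 179 and 236) and 3 members were called, and with no expression filter 677 genes and 3 members. DESeq2 and limma-voom, each with the block, called 2 members, and the GC and length offsets 0. Leaving out 1 mouse gave 59 (without mouse 3) to 633 (without mouse 1) genes and 0 to 2 members. Leaving out 1 library with no replicate block gave 34, 42 and 43 genes (negative libraries of mice 1, 2 and 3) and 113, 74 and 47 genes (positive ones), and 0 members each time. The median of the members stayed above 0 in all 19 alternatives, at 0.06 to 0.49, with the 0.06 without mouse 3 (0 over all genes) and, with no replicate block, without the mouse 1 positive library (0.02 over all genes).

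Signs turned, mostly of fold changes near 0. Cox18 was at 0.03 without the replicate block, 0.21 with library size alone, 0.01 with limma-voom and, with no replicate block, 0.19 without the mouse 1 negative library and 0.34 without the mouse 3 positive library. With library size alone Uqcrc2 was at 0.18, Uqcrfs1 at 0.05, Atp5f1 at 0.10 and Atp5g3 at 0.14, and with upper quartile factors Cox7a2 was at -0.05; these scalings moved the median of all genes by 0.26 and -0.07, and the genes turned with that shift. With GC and length offsets Uqcrc2 was at 0.07, Atp5a1 at 0, Atp5f1 at 0.22 and Cox7a2 at -0.06. Leaving out 1 mouse gave ranges of -0.27 to 0.42 for Cox7a2, -0.13 to 0.42 for Ndufa4, -0.68 to 0.45 for Uqcrfs1, -0.51 to 0.12 for Atp5f1, -0.33 to 0.18 for Atp5g3, -0.11 to 0.39 for Uqcrh, -0.28 to 0.30 for Cox18 and -0.08 to 0.42 for the median of complex I. With no replicate block and 1 library left out, the turned values were -0.01 and -0.03 for Ndufa4, 0.11 and 0.18 for Uqcrfs1, 0.02 for Atp5f1, 0.02 and 0.04 for Atp5g3, -0.06 for Uqcrh, and, without the positive library of mouse 1, -0.14 for Cox6a1 (0.50 with all libraries), -0.03 for Atp5d (0.97), -0.27 for Cox7a2, -0.15 for Atp5g2 (0.78) and 0 for the median of complex V. Apart from the turns by scaling, the cause was not tested.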
